A study of Mus musculus with 24 samples.

Results

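The 8 genes described here are the LIM homeodomain genes *Isl1*, *Isl2*, *Lhx1*, *Lhx3* and *Lhx4*, the homeodomain gene *Mnx1* (also called Hb9), and the cofactor genes *Ldb1* and *Lmo4*. They were chosen by name for their part in specifying motor neurons, with earlier results of these data known. All 8 were found among the 22889 entries of the deposited mouse table. RNA was sequenced from 24 samples in 4 groups of 6. Mouse embryonic stem cells had been directed to an oculomotor or a spinal motor neuron fate, and cells with and without GFP were sorted from each kind of culture. The oculomotor cultures came from the line *Islet1*-GFP/*NesEPhox2a*, in which an enhancer of the nestin gene limits a *Phox2a* transgene to neural progenitors, and were treated for 5 days with 250 nM SAG, an agonist of hedgehog signaling, and 100 ng/ml FGF8. The spinal cultures came from an *Hb9*-GFP line without the transgene and received 500 nM SAG and 100 nM retinoic acid for 5 days. The GFP-negative samples are the cells without GFP from cultures of the same kind, so they carry the same alleles and had the same treatment. Cell line, reporter and patterning factors changed together between the cultures, and their effects cannot be told apart.

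LIM homeodomain proteins carry LIM domains, which bind partner proteins, and a homeodomain, which binds DNA. In the embryonic spinal cord Isl1 and Lhx3 are joined by the adaptor Ldb1 into a complex that turns on motor neuron genes, whereas Lhx3 with Ldb1 but without Isl1 favors V2 interneurons. Mnx1 holds newborn motor neurons to their fate by repressing interneuron genes, and Lmo4, a LIM protein that has no homeodomain, competes for Ldb1. Cranial motor neurons of the oculomotor type are known to use Isl1 without Mnx1.

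Values are RPKM, read counts scaled to transcript length and sequencing depth, so that levels of different genes may be set side by side. Differences are given on the log2(RPKM + 1) scale, where the offset of 1 RPKM understates changes of genes near or below that level, and were tested with limma and Benjamini-Hochberg adjustment over all genes tested, at a threshold of 0.05. The labels do not say whether replicates came from separate differentiations, so p-values measure only the spread between these samples, which may be technical. The estimated depth was 748325 to 7608384 reads per sample, with 748325 to 4627657 in replicates 1 to 4 and 4784904 to 7608384 in replicates 5 and 6. In bulk samples, fewer cells of a type and less RNA per cell cannot be told apart.

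The genes whose promoters drive the reporters check the labels and are not findings. *Isl1* was at 0.696 to 1.87 RPKM in the oculomotor GFP-negative samples and at 141 to 369 RPKM in the GFP-positive ones, so that every oculomotor pair of fractions fitted its labels. *Mnx1* was higher in the spinal GFP-positive than in the spinal GFP-negative sample in 5 of 6 pairs. The exception was spinal replicate 4, whose fractions held 43.1 RPKM (GFP-positive) and 69.4 RPKM (GFP-negative) of *Mnx1*, while *Mnx1* reached at most 4.72 RPKM in the remaining spinal GFP-negative samples. The fractions of that pair were also alike in other cell markers. The summed level of 5 pluripotency genes was 5120 RPKM in the GFP-positive and 5756 RPKM in the GFP-negative sample, against 74.4 to 393 RPKM in the remaining GFP-negative and 14.4 to 12390 RPKM in the remaining GFP-positive samples of spinal cultures. The summed level of 6 neuronal genes was 64.5 RPKM in its GFP-positive sample, against 334 to 1281 RPKM in the other 5, and 78.8 RPKM in its GFP-negative sample, inside the range of that group. The counts of called members in the comparisons with spinal samples are therefore also given without this pair. GFP-positive samples are called neurons here after their titles, and other cells were not excluded. Spinal GFP-positive replicate 5 held the 12390 RPKM of pluripotency genes, beside 448 RPKM of the neuronal genes, and it stays in all ranges and medians, as does replicate 4 unless stated.

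Between oculomotor and spinal GFP-positive neurons, *Mnx1*, *Lhx3* and *Lhx1* were lower in the oculomotor samples, and no member passed the test in the other direction. These were 3 of 8 members, where 0.249% of the 19240 genes tested were called lower in oculomotor samples, 0.353% higher and 0.603% in either direction. The paper lists *Hb9*, *Lhx1* and *Lhx3* among spinal markers in these same samples, and the members were chosen with earlier results known. The share of members is therefore a description and no independent support. The ranges of the groups did not overlap for 4 members, *Isl1* in addition to those 3, against 1.43% of all genes tested. *Isl1* and *Mnx1* are the genes of the sorting reporters, and of the remaining 6 members *Lhx3* and *Lhx1* were called and did not overlap. Without the spinal pair 4 the same 3 members were called, where 0.633% of 18794 genes were, with differences of -5.21 for *Mnx1*, -4.94 for *Lhx3* and -3.22 for *Lhx1* (limma adjusted p = 0.000405, 0.00248 and 0.0017). The other 5 were not called without it, with 1.52 for *Isl1* (limma adjusted p = 0.079), -0.81 for *Isl2*, -0.51 for *Lhx4*, -0.43 for *Lmo4* and 0.51 for *Ldb1*. With all samples kept, the median difference of the 8 members was -0.47, and that of all genes tested was -0.04. Without the spinal pair 4 these medians were -0.66 and -0.01.

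**Figure D1:**
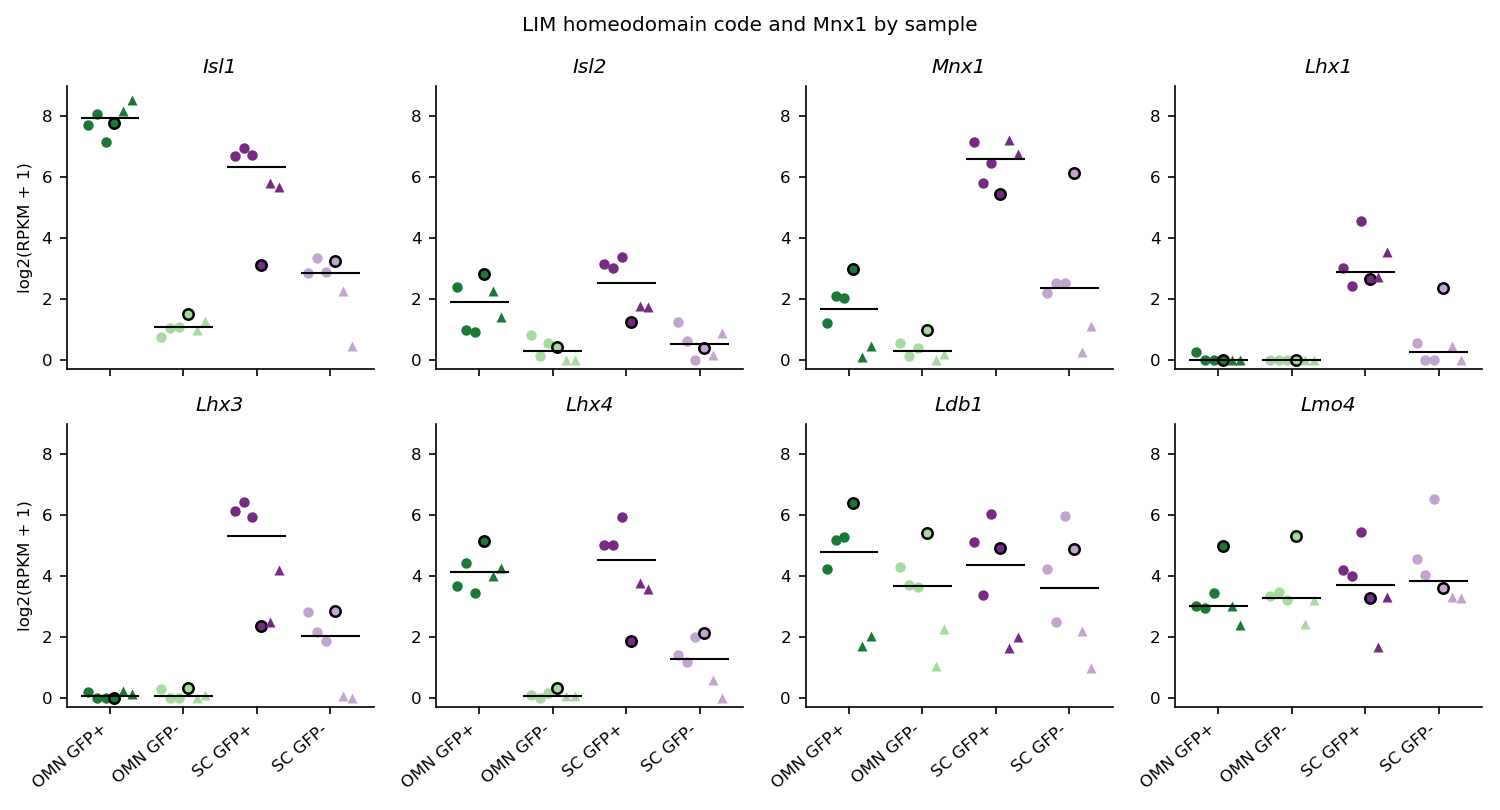
Level of each gene in the 24 samples as log2(RPKM + 1), by culture (OMN, oculomotor; SC, spinal) and sorted fraction (GFP+ or GFP-), with circles for replicates 1 to 4, triangles for replicates 5 and 6, black outlines for replicate 4 and a line at the median of 6 samples. *Lhx1* and *Lhx3* lie near 0 in all 12 oculomotor samples, whereas *Lhx4* is high in the GFP-positive fractions of both cultures.

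*Isl1* (chromosome 13, 116298281 to 116309689 on the minus strand of GRCm38) encodes the LIM factor that all somatic motor neurons express when they leave the cell cycle. It had the highest level of the 8 genes in oculomotor GFP-positive neurons, with a lowest value of 141, a median of 245 and a highest value of 369 RPKM. In spinal GFP-positive neurons it ran from 7.63 to 123 RPKM with a median of 79.8 RPKM, and the lowest value was that of replicate 4. Every oculomotor sample lay above every spinal one. The difference was 2.07 on the log2 scale (SE 0.56) with a limma adjusted p of 0.153, over the threshold. Among 12 alternatives its adjusted p ran from 0.027 to 0.628, and it was called under sample quality weights (adjusted p = 0.027) and in a fit of all 24 samples (adjusted p = 0.037). The oculomotor cells were sorted on an *Isl1* reporter and the spinal cells were not, so the comparison of this gene carries the sort.

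*Isl2* (chromosome 9, 55538672 to 55546180 on the plus strand), the paralog of *Isl1* that is switched on later in motor neurons, was much less abundant. It was at 0.891 to 6.13 RPKM (median 2.72) in oculomotor and at 1.40 to 9.48 RPKM (median 4.76) in spinal GFP-positive neurons, with overlapping ranges. The difference of -0.59 (SE 0.49, 95% interval -1.64 to 0.46, limma adjusted p = 0.709) did not pass the test. As a share of *Isl1* in the same sample, *Isl2* amounted to a ratio of 0.00365 to 0.028 in the oculomotor samples and of 0.0443 to 0.184 in the spinal samples. The ranges of this ratio did not overlap, and its highest spinal value belonged to replicate 4, where *Isl1* was low. *Isl1* is the gene of the oculomotor sorting reporter, so the ratio carries the sort. It is a description and was not tested.

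*Mnx1* (chromosome 5, 29473034 to 29478470 on the minus strand) was at 43.1 to 149 RPKM (median 97.3) in spinal and at 0.0696 to 6.91 RPKM (median 2.23) in oculomotor GFP-positive neurons. The groups lay far apart, with a difference of -5.00 (SE 0.49, limma adjusted p = 0.000196). The spinal cells were sorted on an *Mnx1* reporter, so this difference too carries the sort. Replicates 1 to 4 gave a difference of -4.15 and replicates 5 and 6 one of -6.71, and in the latter the oculomotor samples held 0.0696 and 0.386 RPKM. These levels correspond to 1 and 6 reads. In replicates 1 to 4 *Mnx1* was clearly detected in the oculomotor GFP-positive samples, at 1.34 to 6.91 RPKM. Which cells of these bulk samples held it was not tested.

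The stretches before the starts of *Isl1* and *Mnx1* are shown because promoters of these genes drive the reporters, and those of the paralogs *Lhx3* and *Lhx4* because the levels of the pair came apart between the cultures. They are RefSeq sequence of GRCm38.p6, printed 5′ to 3′ along each gene and trimmed to bases outside annotated exons. Capitals mark TAAT, the core of many homeodomain sites, on either strand (as TAAT or ATTA). The fragments that were cloned into the reporters are not given in the sources used here.
Isl1, chr13:116309690-116309938, minus strand: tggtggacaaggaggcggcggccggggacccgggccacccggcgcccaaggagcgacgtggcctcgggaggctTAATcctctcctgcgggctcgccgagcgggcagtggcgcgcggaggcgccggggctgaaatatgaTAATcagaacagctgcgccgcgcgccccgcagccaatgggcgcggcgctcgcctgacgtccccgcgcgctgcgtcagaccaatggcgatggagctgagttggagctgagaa
Mnx1, chr5:29478471-29478720, minus strand: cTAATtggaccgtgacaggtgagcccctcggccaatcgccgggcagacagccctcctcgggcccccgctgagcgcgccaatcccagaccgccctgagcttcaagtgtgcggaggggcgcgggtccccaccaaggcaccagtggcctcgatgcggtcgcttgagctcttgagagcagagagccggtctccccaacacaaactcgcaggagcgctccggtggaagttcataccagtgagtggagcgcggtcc
Lhx4, chr1:155742028-155742277, minus strand: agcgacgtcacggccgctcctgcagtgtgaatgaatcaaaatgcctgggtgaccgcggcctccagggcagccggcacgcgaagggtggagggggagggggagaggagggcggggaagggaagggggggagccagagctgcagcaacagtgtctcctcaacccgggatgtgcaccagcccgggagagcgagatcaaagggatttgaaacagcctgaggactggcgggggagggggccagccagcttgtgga
Lhx3, second start, chr2:26206576-26206701, minus strand: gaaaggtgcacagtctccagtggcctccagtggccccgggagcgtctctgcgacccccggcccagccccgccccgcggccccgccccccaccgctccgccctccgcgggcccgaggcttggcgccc
The *Isl1* stretch holds 2 such matches and the *Mnx1* stretch 1, and those of *Lhx4* and of the second *Lhx3* start hold 0. The window of 250 bases before the first *Lhx3* start, which is not printed, holds 1. In windows of 250 bases before all 32851 RefSeq starts, TAAT or ATTA was present in 54.9%, and in 5 of the 13 windows of the 8 members. The longer palindrome TAATTA, which contains both, was in 0 of the 13 and in 4.8% of all windows. The E-box CATCTG (or CAGATG on the other strand), a motif bound by proneural factors, was in 1 of the 13, at the second start of *Lhx3* beyond the stretch printed, and in 14.4% of all windows. All 4 printed stretches were rich in G and C, from 66.0% to 80.2%.

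*Lhx3* (chromosome 2, 26200212 to 26208289 on the minus strand), the partner of Isl1 in the spinal motor neuron complex, was all but missing from the oculomotor cultures. It was at 0 to 0.154 RPKM in the 6 oculomotor GFP-positive samples, 3 of which were listed at 0, and these values add up to 7 reads in all. In the spinal GFP-positive samples it ran from 4.12 to 84.4 RPKM with a median of 38.6 RPKM. The spinal samples fell into high values of 60.2 to 84.4 RPKM in replicates 1 to 3 and lower values of 4.12 to 17.2 RPKM in replicates 4 to 6. All of them lay above every oculomotor sample, with a difference of -4.50 (SE 0.69, limma adjusted p = 0.00833). In replicates 1 to 4 alone the difference was -5.16, in replicates 5 and 6 it was -3.16, and without replicate 4 it was -4.92. A single read of *Lhx3* was worth 0.043 to 0.437 RPKM over the 24 samples, so levels below that could not be detected. Exons of the antisense gene *Gm27196* overlap *Lhx3*, and reads of both cannot be told apart where libraries do not mark the strand.

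*Lhx4* (chromosome 1, 155698031 to 155751684 on the minus strand), the closest paralog of *Lhx3*, behaved otherwise. It was at 9.81 to 34.4 RPKM (median 16.6) in oculomotor and at 2.63 to 60.3 RPKM (median 21.8) in spinal GFP-positive neurons. The oculomotor values all lay inside the spinal range, whose lowest value was that of replicate 4. The difference was -0.04 (SE 0.58, limma adjusted p = 0.992), with a 95% interval from -1.28 to 1.21, which does not show that the levels were alike. Without the spinal pair 4, whose GFP-positive sample was low in *Lhx4*, it was -0.51 (limma adjusted p = 0.744). In the 3 oculomotor samples with any *Lhx3* read, the RPKM ratio of *Lhx4* to *Lhx3* was 81.7 to 191. In the spinal GFP-positive samples this ratio ran from 0.374 to 2.77 with a median of 0.637, and *Lhx4* exceeded *Lhx3* in 2 of 6.

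**Figure D2:**
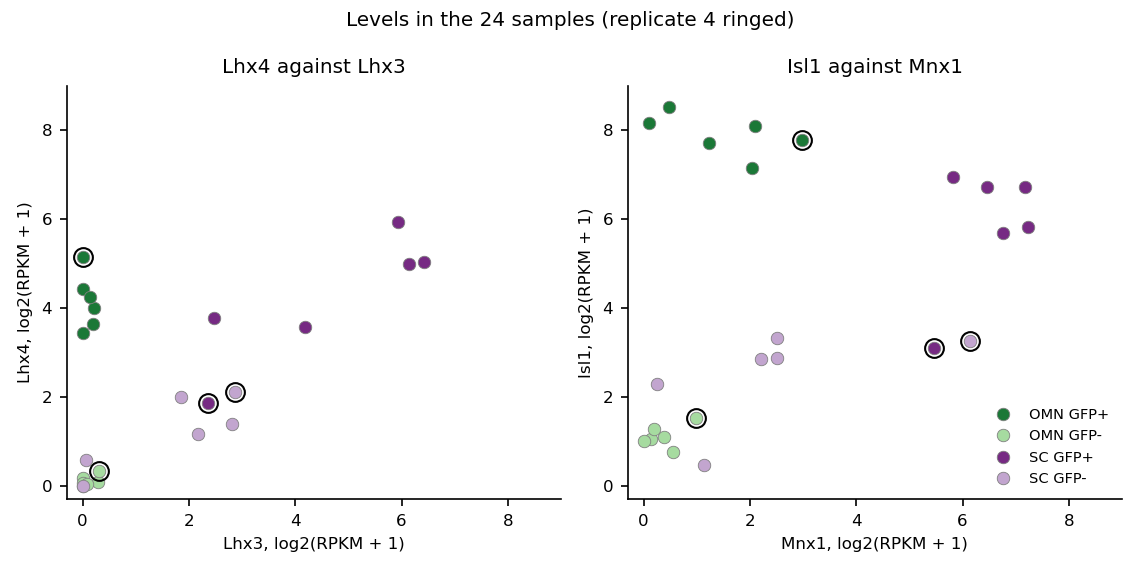
Levels of *Lhx4* against *Lhx3* (left) and of *Isl1* against *Mnx1* (right), each as log2(RPKM + 1), with 1 point per sample in 4 colors for culture and fraction and rings around replicate 4. Oculomotor GFP-positive samples lie along the vertical axis on the left, with *Lhx4* but almost no *Lhx3*, and the ringed spinal fractions lie next to each other in both panels.

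*Lhx1* (chromosome 11, 84518284 to 84525535 on the minus strand) marks lateral motor column neurons that send axons to the dorsal limb, and several interneuron classes. It was listed at 0 in 11 of the 12 oculomotor samples and at 0.212 RPKM in the remaining GFP-positive sample. The spinal GFP-positive samples held 4.43 to 22.8 RPKM, with a median of 6.37 RPKM, and none was near 0. The difference was -3.12 (SE 0.38, limma adjusted p = 0.00117), and it was -3.11 in replicates 1 to 4 and -3.15 in replicates 5 and 6. With replicates 1 to 4 alone the adjusted p rose to 0.0695, in a range of 7.78e-06 to 0.186 over 12 alternatives of which 10 called it.

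Levels of the cofactors did not separate the motor neuron types. *Ldb1* (chromosome 19, 46031570 to 46045214 on the minus strand), the adaptor that joins LIM factors, was at 2.27 to 82.5 RPKM (median 26.2) in oculomotor and at 2.08 to 63.9 RPKM (median 19.2) in spinal GFP-positive neurons. *Lmo4* (chromosome 3, 144188530 to 144205220 on the minus strand) was at 4.22 to 30.5 RPKM (median 7.07) and at 2.16 to 42.2 RPKM (median 12.0). The ranges overlapped almost entirely, with differences of 0.29 for *Ldb1* (SE 0.93, 95% interval -1.71 to 2.30, limma adjusted p = 0.945) and -0.35 for *Lmo4* (SE 0.57, 95% interval -1.59 to 0.88, limma adjusted p = 0.871). Exons of *Pprc1* on the opposite strand overlap *Ldb1*, those of *Gm43445* overlap *Lmo4* and those of the antisense gene *Gm17226* overlap *Isl2*, and their reads cannot be told apart either. The direction for *Ldb1* turned to -0.30 with sample quality weights.

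**Figure D3:**
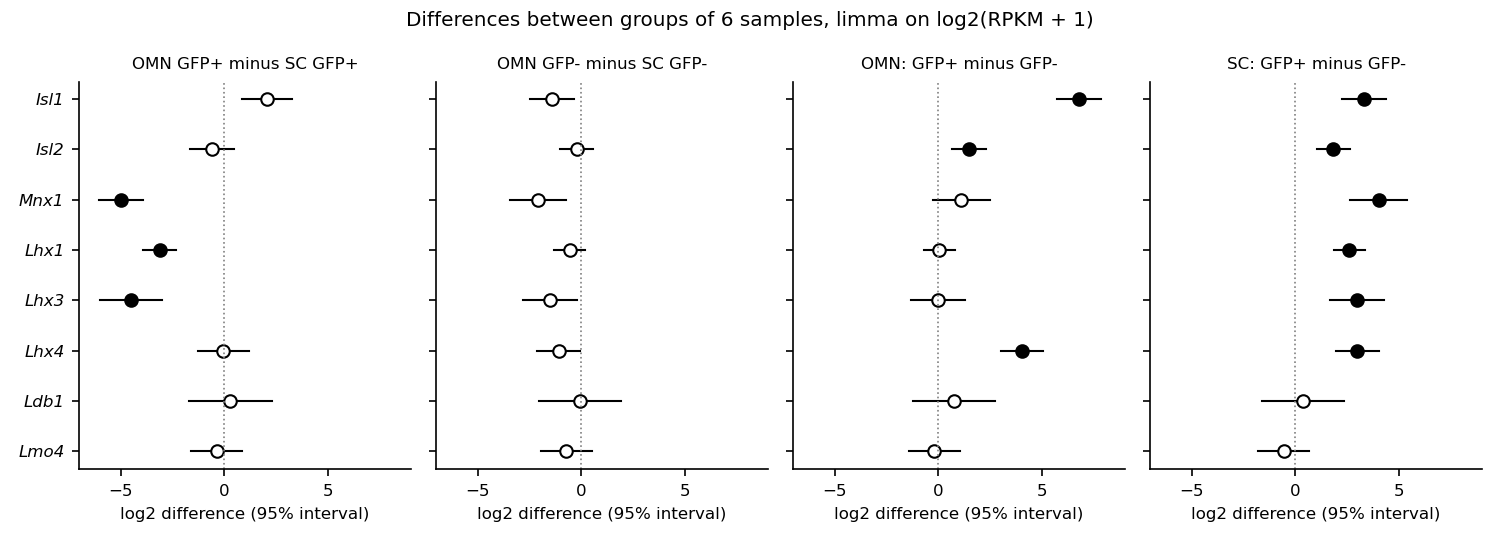
Log2 differences of the 8 genes in 4 comparisons of 6 against 6 samples, with 95% intervals from limma and filled points where the adjusted p was under 0.05. *Lhx3* and *Lhx1* differ between the GFP-positive groups and between the spinal fractions but not between the oculomotor fractions, and *Lhx4* differs between the fractions of both cultures.

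The order of the levels within a group describes the code as a whole. In oculomotor GFP-positive neurons the medians ran *Isl1*, *Ldb1*, *Lhx4*, *Lmo4*, *Isl2*, *Mnx1*, *Lhx3* and *Lhx1*, and *Isl1* was the gene whose range stood clear of its neighbor. *Ldb1* exceeded *Lhx4* in 4 samples, but in replicates 5 and 6, where *Ldb1* was at 2.27 and 3.07 RPKM, it lay below both *Lhx4* (15.0 and 18.2 RPKM) and *Lmo4* (7.05 and 4.22 RPKM). *Lhx4* exceeded *Lmo4*, and *Lmo4* exceeded *Isl2*, in 6 of 6 samples although their ranges overlapped, while *Isl2* and *Mnx1* were each the higher in 3 samples. In spinal GFP-positive neurons the order was *Mnx1*, *Isl1*, *Lhx3*, *Lhx4*, *Ldb1*, *Lmo4*, *Lhx1* and *Isl2*, and the ranges of all neighbors overlapped. *Isl1* exceeded *Lhx3* in all 6 of these samples, and *Mnx1* exceeded *Isl1* in 4. In the GFP-negative fractions the cofactors came first, *Ldb1* before *Lmo4* in the oculomotor and *Lmo4* before *Ldb1* in the spinal samples. All 6 homeodomain genes had medians of at most 1.11 RPKM in the oculomotor GFP-negative and at most 6.30 RPKM in the spinal GFP-negative samples.

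The comparison of the sorted fractions of the oculomotor cultures shows which members went with the *Isl1* reporter. The reported tests of fractions did not pair samples by replicate number. *Isl1*, *Lhx4* and *Isl2* rose, 3 of 8 members, where 3.81% of the 22179 genes tested were called higher, and the fraction ranges of these 3 did not overlap, as was so in this direction for 4.04% of genes tested. *Isl1* is the gene of the sorting reporter here, and without it 2 of 7 members were called. The median over the 8 members was 0.93 and that over all genes tested was 0.00. *Isl1* rose by 6.79 (limma adjusted p = 1.33e-08), which reflects the sort. *Lhx4* rose from 0 to 0.258 RPKM in GFP-negative cells, 7 reads in all, to at least 9.81 RPKM in every GFP-positive sample, by 4.04 on the log2 scale (SE 0.50, limma adjusted p = 1.31e-05). *Isl2* rose from 0 to 0.785 RPKM to the values given above, by 1.48 (SE 0.39, limma adjusted p = 0.0244), and this call was lost in 6 of 24 analyses that left out 1 sample (oculomotor GFP-positive replicate 1, 4 or 5 or GFP-negative replicate 2, 5 or 6), with adjusted p values of up to 0.0695, and with replicates 1 to 4 alone (0.269).

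The other 5 members did not pass the test in the oculomotor cultures. *Mnx1* was higher in the GFP-positive sample of all 6 pairs, from 0 to 0.988 RPKM in GFP-negative samples to a median of 2.23 RPKM, but the difference of 1.11 (SE 0.66) had a limma adjusted p of 0.428. *Lhx3* held 4 reads in all over the GFP-negative samples, against 7 in the GFP-positive ones. *Ldb1* and *Lmo4* differed by 0.75 (SE 0.96) and -0.20 (SE 0.60), with limma adjusted p values of 0.829 and 0.988, and *Ldb1* turned to -0.05 with sample quality weights. Other cell markers moved with this step too. Of the 22179 genes tested, 6.15% were called in either direction and 3.81% higher. All 6 neuronal genes rose, and their summed level was 18.3 to 59.9 RPKM in GFP-negative and 819 to 1337 RPKM in GFP-positive samples. Of 5 pluripotency genes, 4 fell (*Nanog*, *Zfp42*, *Dppa5a* and *Esrrb*), with summed levels of 670 to 9860 RPKM in GFP-negative and 0.315 to 253 RPKM in GFP-positive samples. *Isl1* also marks sensory neurons, and *Pou4f1*, a gene of those cells, rose from 0.159 to 1.48 RPKM in GFP-negative samples to 4.94 to 23.6 RPKM in GFP-positive samples (log2 difference 2.72, limma adjusted p = 6.37e-05). The progenitor gene *Sox2*, 1 of 6 in its list, the cycling genes *Top2a* and *Ccnb1*, 2 of 4, and *Foxa2*, 1 of 7 genes of endoderm, notochord and pancreas, fell (limma adjusted p = 0.00105, 0.0355, 0.0308 and 0.047). The part of such cells in the levels of *Isl1*, *Isl2* and *Lhx4* was not tested.

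In the spinal cultures 6 of 8 members were higher in GFP-positive than in GFP-negative cells, every one but the cofactors, where 0.397% of the 22179 genes tested were called higher. The median over the 8 members was 2.78 and that over all genes tested was 0.00. The ranges of the fractions did not overlap for *Lhx1* and *Isl2*, 2 of 8 members, against 0.0721% of genes tested in this direction. For *Isl1*, *Lhx4* and *Mnx1* the overlap came from replicate 4. *Lhx3* overlapped without it too, with 4.54 RPKM in GFP-positive replicate 5 and 6.03 RPKM in GFP-negative replicate 1. *Mnx1* is the gene of the sorting reporter, and without it 5 of 7 members were called. Without both samples of pair 4 the same test again called 6 members, where 1.36% of the 21837 genes tested were called higher.

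*Mnx1*, the gene of the reporter, rose by 4.02 (limma adjusted p = 0.00192), and by 4.96 without pair 4. *Isl1* rose from a median of 6.30 RPKM (0.392 to 9.10) to 79.8 RPKM, by 3.32 (SE 0.51, limma adjusted p = 0.00147), and in every pair but pair 4, whose fractions held 7.63 RPKM (GFP-positive) and 8.56 RPKM (GFP-negative). *Lhx3* rose from a median of 3.06 RPKM (0 to 6.26) by 2.96 (SE 0.63, limma adjusted p = 0.0142), and *Lhx4* from a median of 1.43 RPKM (0 to 3.32) by 2.99 (SE 0.50, limma adjusted p = 0.00209). In pair 4 these genes were at 4.12 and 2.63 RPKM in the GFP-positive sample, lower than the 6.26 and 3.32 RPKM of its GFP-negative sample. *Lhx1* rose by 2.60 (SE 0.36, limma adjusted p = 0.000349). Its GFP-negative samples lay at 0 to 0.471 RPKM apart from replicate 4 with 4.16 RPKM. *Isl2* rose from a median of 0.43 RPKM (0 to 1.37) by 1.84 (SE 0.39, limma adjusted p = 0.0147), and was higher in the GFP-positive sample of all 6 pairs.

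**Figure D4:**
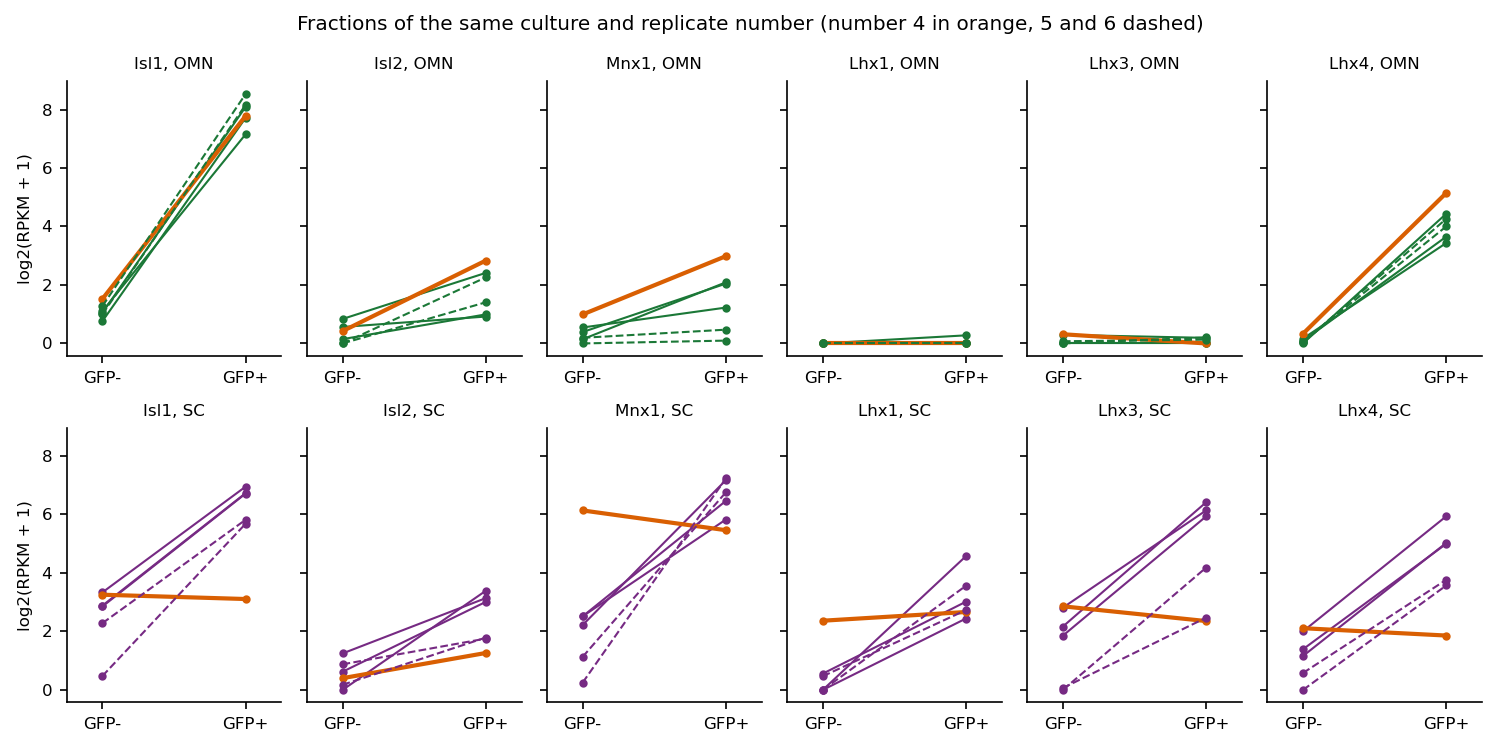
Levels of 6 homeodomain genes as log2(RPKM + 1) in the GFP-negative and GFP-positive fractions, with lines joining fractions of the same culture and replicate number, orange for number 4 and dashed for numbers 5 and 6. Spinal pair 4 runs flat in *Isl1*, *Lhx1*, *Lhx3* and *Lhx4* and falls slightly in *Mnx1*, while the other 5 spinal pairs rise in all 6 genes.

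The calls in the spinal cultures rest on the estimate of the spread taken from all 4 groups. In a fit of the 12 spinal samples alone none of the 8 members passed the limma test (adjusted p from 0.094 to 0.283 for the 6 genes above), though the differences are the same by construction, and this fit called 4 of 20877 genes in all. Leaving pair 4 out of it gave 4 members (*Isl1*, *Lhx1*, *Lhx4* and *Mnx1*), where 126 of 20145 genes were called. With replicates 1 to 4 alone there were 0 called members (limma adjusted p from 0.139 to 0.206 for the same 6 genes), and 1 of 20942 genes was called in all. With replicates 1 to 3 alone, chosen after seeing the data, there were 6, where 1.2% of 20162 genes were called. Without pair 4 the differences were 4.01 for *Isl1*, 3.65 for *Lhx3*, 3.63 for *Lhx4*, 3.06 for *Lhx1* and 2.03 for *Isl2*. In replicates 5 and 6 the differences were 4.37 for *Isl1*, 6.30 for *Mnx1*, 3.29 for *Lhx3* and 3.38 for *Lhx4*. Neuronal genes rose in this step as well, 4 of 6 (*Tubb3*, *Stmn2*, *Elavl4* and *Dcx*), and 5 of 6 without pair 4. In the reported fit 1.23% of the 22179 genes tested were called in either direction and 0.397% higher. Without pair 4 these shares were 2.9% and 1.36% of 21837 genes. The endoderm genes *Sox17*, *Gata4* and *Gata6* fell, 3 of 7 in the list of endoderm, notochord and pancreas genes, whose summed level was 5.81 to 100 RPKM in spinal GFP-negative and 2.07 to 14.4 RPKM in spinal GFP-positive samples. No pluripotency gene passed the limma test. Their summed level in spinal GFP-positive samples reached 12390 RPKM in replicate 5 and was 14.4 to 1128 RPKM in replicates 1 to 3 and 6. The part of these cells in the members' levels was not tested.

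Whether the step differed between the cultures was tested as the interaction of culture and fraction, for which 0.32% of the 22179 genes tested were called. *Isl1* and *Lhx1* were among them, 2 of 8 members. The step of *Isl1* was larger in the oculomotor cultures by 3.47 (SE 0.73, limma adjusted p = 0.0306), which includes the sort on its reporter, and it was under the threshold in 11 of 24 analyses that left out 1 sample, with adjusted p values of 0.00568 to 0.0642. It was lost without oculomotor GFP-positive replicate 2, 5 or 6, any oculomotor GFP-negative replicate but 4, spinal GFP-positive replicate 5 or 6, or spinal GFP-negative replicate 1, 2 or 3. Without pair 4 it was 2.77 (limma adjusted p = 0.0132). The step of *Lhx1* was larger in the spinal cultures by 2.55 (SE 0.50, limma adjusted p = 0.0214) and was called in all 24 such analyses. With replicates 1 to 4 alone neither was called (limma adjusted p = 0.249 and 0.609). For *Lhx3* the interaction was -2.98 (SE 0.89) with a limma adjusted p of 0.217. It was 0.0455 with the replicate block within each culture and 0.0286 without the spinal pair 4, in a range of 0.0286 to 0.662 over 12 alternatives. *Mnx1* gave -2.92 (SE 0.94, limma adjusted p = 0.293) and, without pair 4, -3.86 (limma adjusted p = 0.00441, in a range of 0.00441 to 0.95 over 12 alternatives). Without pair 4 the interaction was thus called for 4 of 8 members, where 1.04% of the 21837 genes tested were called. *Lhx4*, which rose in both cultures, gave 1.06 (SE 0.70, 95% interval -0.40 to 2.51, limma adjusted p = 0.822), and 0.41 without pair 4 (limma adjusted p = 0.897).

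Between the GFP-negative fractions no member passed the test, where 0.96% of the 22179 genes tested were called. The limma test gave 4 of the 8 an unadjusted p under 0.05 (*Isl1*, *Lhx3*, *Lhx4* and *Mnx1*, each with a higher mean in spinal samples). The share of all genes at that unadjusted level is not given here, so this count is only a description. *Isl1* was at 0.696 to 1.87 RPKM in oculomotor and 0.392 to 9.10 RPKM in spinal GFP-negative samples, with 5 of the 6 spinal samples above every oculomotor one. The difference was -1.40 (SE 0.51, limma adjusted p = 0.262). *Mnx1* was at 0 to 0.988 RPKM, 11 reads in all, in oculomotor and at 0.189 to 69.4 RPKM (median 4.19) in spinal GFP-negative samples (difference -2.08, SE 0.66, limma adjusted p = 0.164), and without pair 4 the difference shrank to -1.35. Without pair 4 again 0 members were called, where 2.67% of 21837 genes were. With replicates 1 to 3 alone 3 members were called, *Isl1*, *Lhx3* and *Mnx1*, where 1.05% of 20162 genes were, with limma adjusted p values of 0.0111, 0.0196 and 0.0406.

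Levels of the cofactor genes also differed between replicate sets. *Ldb1* was at 0.944 to 3.78 RPKM in the 8 samples of replicates 5 and 6 and at 4.61 to 82.5 RPKM in the 16 samples of replicates 1 to 4, with no overlap in any group. In a fit with the group and the replicate set as terms, added after seeing the data, *Ldb1* was lower in replicates 5 and 6 by 2.96 on the log2 scale (SE 0.38, limma adjusted p = 8.14e-06) and *Lmo4* by 1.26 (SE 0.37, limma adjusted p = 0.0143). These were 2 of 8 members, where 18.0% of the 22179 genes tested were called lower in replicates 5 and 6, so that such a difference was common among all genes. *Lhx3* and *Mnx1* differed by -1.07 and -1.03 in the same fit, with limma adjusted p values of 0.0683 and 0.106. The sets differ in depth, which was higher in replicates 5 and 6, and what else set them apart was not tested. The paper names different sequencing platforms and read lengths, and which samples had which was not examined here. The ratio of *Lmo4* to *Ldb1* ranged from 0.189 to 3.10 in oculomotor GFP-positive and from 0.293 to 3.02 in spinal GFP-positive samples, without separating them.

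**Figure D5:**
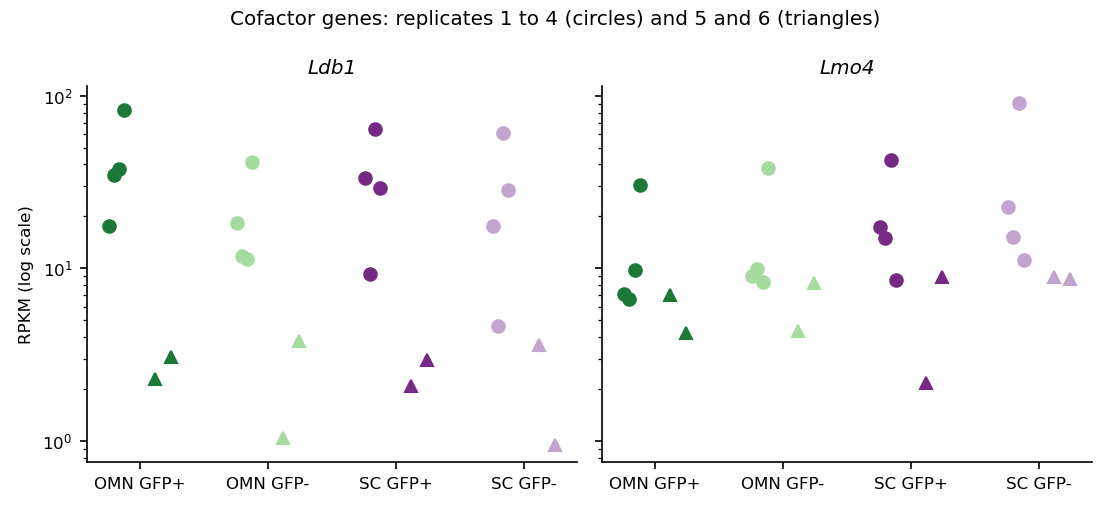
RPKM of *Ldb1* (left) and *Lmo4* (right) on a log scale for the 4 groups, with circles for the 4 samples of replicates 1 to 4 and triangles for the 2 samples of replicates 5 and 6 in each group. The triangles of *Ldb1* lie between 0.944 and 3.78 RPKM, below all circles of their group.

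Other genes of the LIM system were read from lists. Of 7 further LIM homeodomain genes (*Lhx2*, *Lhx5*, *Lhx6*, *Lhx8*, *Lhx9*, *Lmx1a* and *Lmx1b*) none passed the limma test in any of the 5 comparisons, with at most 1 at an unadjusted p under 0.05 in each. Their summed level was 0.95 to 2.04 RPKM in oculomotor and 0.946 to 7.46 RPKM in spinal GFP-positive neurons, so that expression of this family outside the 8 members was low. The highest of them was *Lmx1a*, a midbrain gene, which reached 39.3 RPKM in an oculomotor GFP-negative sample and at most 1.73 RPKM in any GFP-positive sample.

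Of 8 further cofactor genes (*Lmo1*, *Lmo2*, *Lmo3*, *Ldb2*, *Ssbp2*, *Ssbp3*, *Ssbp4* and *Rlim*), 1 was called between the GFP-positive groups. In that comparison 0.603% of the 19240 genes tested were called. *Lmo1*, a LIM-only gene related to *Lmo4*, was at 39.3 to 154 RPKM in oculomotor and at 0 to 9.89 RPKM in spinal GFP-positive neurons, and the ranges did not overlap. The difference was 3.84 (SE 0.55, limma adjusted p = 0.00502), and 3.31 without pair 4, in which the spinal GFP-positive sample was listed at 0. Within the oculomotor cultures *Lmo1* rose from 0.302 to 4.30 RPKM in GFP-negative cells by 4.84 (SE 0.52, limma adjusted p = 1.64e-06). In the spinal cultures it was at 0.182 to 4.41 RPKM in GFP-negative cells, with a difference of 0.76 (SE 0.52, limma adjusted p = 0.677) that was 1.38 without pair 4 (limma adjusted p = 0.0992). The interaction was 4.08 (SE 0.73, limma adjusted p = 0.00996). In the fit with the replicate set as a term, *Ssbp3* and *Ssbp4* were called lower in replicates 5 and 6. These were 2 of 8 genes, where 18.0% of all genes tested were called lower, so such a difference was common. *Lmo2*, *Lmo3* and *Ldb2* were called higher, and the share of all genes called higher is not given here.

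Genes of the cholinergic machinery, known targets of the Isl1-Lhx3 complex in spinal motor neurons, were compared as a list of 4. *Chat*, *Ache* and *Slc18a3* were above 0 in all 12 GFP-positive samples, and *Slc5a7*, the choline transporter, was listed at 0 in 2 of 6 samples of each GFP-positive group. *Slc18a3*, the vesicular acetylcholine transporter, was at 10.8 to 62.4 RPKM (median 44.5) in oculomotor and at 0.955 to 74.5 RPKM (median 17.5) in spinal GFP-positive neurons, where the lowest value was that of replicate 4. None of the 4 genes differed between the GFP-positive groups by limma, and 0 had an unadjusted p under 0.05. In the oculomotor cultures, in which *Lhx3* was at 0 to 3 reads a sample, 3 of 4 rose with GFP, *Slc18a3* by 4.65 (SE 0.66, limma adjusted p = 7.11e-05), *Chat*, which makes acetylcholine, by 2.64 (SE 0.49, limma adjusted p = 0.0013) and *Ache* by 2.12 (SE 0.33, limma adjusted p = 0.000205). Between the oculomotor fractions 3.81% of the 22179 genes tested were called higher. In the spinal cultures none passed, with *Slc18a3* at 2.41 (SE 0.66, limma adjusted p = 0.0716) and 3 genes at an unadjusted p under 0.05. Without pair 4 *Slc18a3* passed there, at 3.09 (limma adjusted p = 0.00394). The interaction was not called for any of the 4, while limma gave 3 of them an unadjusted p under 0.05.

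Genes listed for V0, V1, V2 and V3 interneurons were low in GFP-positive neurons. Of 7 V2 interneuron genes and of 8 genes of V0, V1 and V3 interneurons none passed the limma test in any of the 5 comparisons, with at most 2 at an unadjusted p under 0.05 in each. Without pair 4, *En1* was called higher in oculomotor than in spinal GFP-negative samples (2.58, limma adjusted p = 0.0313). The paper reports *En1* as enriched in all midbrain-specified cultures, with and without GFP, so here it is not specific to interneurons. The V2 genes summed to 1.59 to 4.58 RPKM in oculomotor and 0.108 to 7.55 RPKM in spinal GFP-positive neurons, and the V0, V1 and V3 genes to 3.25 to 10.2 and 1.87 to 8.45 RPKM. The highest were *Gata3* of the V2 list and *Nkx2-2* of the other, at most 7.09 and 7.46 RPKM in GFP-positive samples. Of 5 markers of spinal motor columns, *Etv1* fell with GFP in the oculomotor cultures, by 1.41 on the log2 scale (limma adjusted p = 0.023), and no other was called in any of the 5 comparisons. Between the oculomotor fractions 6.15% of the 22179 genes tested were called in either direction.

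The genes most alike in pattern were sought by Pearson correlation over the 24 samples among 11950 genes with a mean of at least 1 RPKM, which describes patterns shared by samples of common groups and libraries. *Isl1* was most like *Elavl4* (r = 0.967), *Asap1* (0.958) and *St18* (0.957), and *Lhx4* had rank 4 (0.939), ahead of *Isl2* (0.739). *Elavl4*, a neuronal RNA-binding protein, had medians of 207 RPKM in oculomotor and 108 RPKM in spinal GFP-positive neurons. *Mnx1* was most like *Zscan4-ps2* (0.921), *Zscan4c* (0.92) and *Zscan4f* (0.913), near-identical copies between which reads may have been split, and among the members like *Lhx1* (0.907) and *Lhx3* (0.849). *Lhx3* was most like *Tshz1* (0.899), *Zscan4b* (0.889) and *Zscan4-ps3* (0.885). Between *Isl1* and *Mnx1* the coefficient was 0.364, and between *Lhx3* and *Lhx4* it was 0.525.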

How the data were processed

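Bulk RNA of 24 sorted samples was sequenced from SMART-seq2 libraries, which carry no molecular identifiers and do not mark the strand. The authors aligned reads to mm10 with HISAT2 2.0.3 and deposited RPKM values per gene from rpkmforgenes. The submitters' processing notes also list DESeq2 1.12.4. The gene annotation is not given in the sources used here, so coordinates are those of GENCODE M21 and RefSeq on GRCm38, matched by symbol. Depth was estimated from the steps of low RPKM values over 5911 genes with 1 transcript, where 96.4% to 98.0% of values under 10 reads came out whole within 2.0%. Read numbers cover counting error only, and the 95% intervals of differences come from the spread between samples. No columns were left without a sample.

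A gene entered a fit where 2 or more samples had a value over 0 RPKM. Tests used limma 3.58.1 (trend) in R 4.3.3 on log2(RPKM + 1), and p-values were adjusted over all genes tested. Counts at an unadjusted p under 0.05 have no share over all genes beside them and are descriptions. The comparison of GFP-positive groups used those 12 samples, and the others used all 24 samples in 4 groups. The script was tested on simulated data. Named are the 8 members, genes of the fixed lists that passed the test or the highest gene of a list in which none did, and the 3 genes most correlated with *Isl1*, *Mnx1* and *Lhx3*. Some genes of the lists are not reported here. The members and lists were chosen with earlier results of these data known. Fractions of the same culture and number deviated together over 11952 genes (r 0.38 to 0.73 in oculomotor and 0.42 to 0.66 in spinal cultures, over 0.1 in 6 of 6 pairs each), so numbers pair the fractions of a culture, and across cultures this held for 4 of 6 pairs. The reported tests did not use this pairing. The replicate block within cultures, an alternative that did, called 16.4% of genes between oculomotor fractions and 2.93% between spinal fractions. The reported tests called 6.15% and 1.23%. The alternatives were the pseudocount, filters, scaling, weights, replicate block, samples fitted and each sample left out. Fits of replicates 1 to 3, of the spinal culture without its pair 4 and of the replicate sets were added after seeing the data.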

Additional observations from a re-analysis of the deposited data

Results flagged for a closer look

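In 32 groups of 6 values on the log2(RPKM + 1) scale, 5 held a sample far from the others by Dixon's criterion. Chance gives about 1 in 20 for normally distributed values, which groups with many values at 0 are not. The count is therefore a description. *Lhx1* was at 0 in all 6 oculomotor GFP-negative samples, so no sample of that group could be flagged. *Isl1* was lowest in spinal GFP-positive replicate 4, at 7.629 RPKM (gap to range 0.67), and in spinal GFP-negative replicate 6, at 0.3916 RPKM (0.632). *Lhx1* was highest in oculomotor GFP-positive replicate 1, at 0.2116 RPKM with the other samples of the group at 0, and in spinal GFP-negative replicate 4, at 4.16 RPKM (0.765). *Lmo4* was highest in oculomotor GFP-negative replicate 4, at 38.22 RPKM (0.64).

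The difference between fractions was unequal in the 2 kinds of culture for *Isl1*, by 3.47 on the log2 scale (limma adjusted p = 0.0306), and for *Lhx1*, by -2.55 (limma adjusted p = 0.0214).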

How the results depend on the processing

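Of 1351 values under an alternative, 1266 kept their direction and side of the threshold, 41 lost and 11 gained a call, and 33 changed sign. Members called between the GFP-negative groups numbered 3 with replicates 1 to 3 (0 as reported). For the spinal fractions they numbered 0 in a fit of that culture alone and 0 with replicates 1 to 4 (6 as reported). For the interaction they numbered 1 with a pseudocount of 0.1 RPKM, 0 with replicates 1 to 4, 1 with replicates 1 to 3 and 4 without spinal pair 4 (2 as reported), and leaving out 1 sample gave 1 to 3. The replicate block within cultures brought the interaction of *Lhx3* to a limma adjusted p of 0.0455, and the replicate block by number alone left the 2 interaction calls and every other call of a member as it was.

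Values that changed sign were all uncalled. With a pseudocount of 0.1 RPKM, *Lhx4* between GFP-positive groups was 0.00119. With sample quality weights *Ldb1* was -0.295 between GFP-positive groups, -0.0459 between oculomotor fractions and -0.051 for the interaction, and *Lhx3* was 0.0355 between oculomotor fractions. *Ldb1* between GFP-negative groups was 0.217 without spinal pair 4, and the interaction of *Lhx4* was -0.0453 with replicates 1 to 3. Leaving out 1 sample gave, between GFP-positive groups, -0.506 to 0.31 for *Lhx4*, -0.752 to 0.00354 for *Lmo4* and -0.157 to 0.777 for *Ldb1*; between GFP-negative groups -0.569 to 0.429 for *Ldb1*; between oculomotor fractions -0.0494 to 0.0144 for *Lhx3* and -0.534 to 0.164 for *Lmo4*; between spinal fractions -0.116 to 0.882 for *Ldb1*; and for the interaction -0.0878 to 0.734 for *Lmo4* and -0.135 to 0.863 for *Ldb1*. The cause was not tested. Depth limits *Lhx3*, of which 1 read was worth 0.043 to 0.437 RPKM.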
